A study of Mus musculus with 622 samples.

Results

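Th-positive beta cells, chosen by their measured Th RNA, were the 75 insulin cells whose library held Th, the gene of tyrosine hydroxylase, at 1 RPKM or more, out of 352 beta cells and 622 islet cells in all. RPKM counts reads relative to gene length and to the depth of the library. A beta cell here had at least 1000 genes at 1 RPKM, at least 99% of its hormone RNA (Ins1, Ins2, Gcg, Sst and Ppy) from Ins1 and Ins2, and Tyrobp, a macrophage gene, under 100 RPKM. Of the 622 cells, 593 had enough genes, 360 of these also met the insulin rule, and Tyrobp then removed 8. The Th-positive cells were set against the 260 beta cells with Th at 0. A further 17 beta cells held a trace of Th, above 0 and under 1 RPKM, and stood on neither side. All cells came from islets of wild-type C57BL/6 mice and had no treatment named in the labels. Each was captured in its own chamber of a C1 microfluidic chip, lysed there and made into its own library with full-length cDNA and Nextera tagging. No animal, age or chip is named, so all cells counted as 1 sample. Cells are therefore not replicates, and no p-value was computed; means, medians, quartiles and shares describe these libraries.

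Beta cells make and secrete insulin, and some also hold the machinery for catecholamines, the family of dopamine, noradrenaline and adrenaline. Tyrosine hydroxylase turns tyrosine into L-DOPA and is the rate-limiting enzyme of the pathway. It needs tetrahydrobiopterin, which is built from GTP by the products of Gch1, Pts and Spr. Ddc, the aromatic amino acid decarboxylase, then makes dopamine, and the vesicular monoamine transporter Slc18a2 loads it into granules. Dbh and Pnmt carry dopamine on to noradrenaline and adrenaline, while Maoa and Maob break catecholamines down. In islets, dopamine released by beta cells is known to lower insulin secretion.

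Cyclic AMP acts on Th through the cAMP response element TGACGTCA, which the factor CREB binds, so the promoters of the pathway's first enzyme and of its granule transporter are shown. Both are from RefSeq on GRCm38.p6, 300 bases from 250 before the transcription start to 50 after it, 5′ to 3′, with TGACGTCA in capitals. The Th promoter lies at chr7:142899946-142900245 on the minus strand and the Slc18a2 promoter at chr19:59260628-59260927 on the plus strand.
Th: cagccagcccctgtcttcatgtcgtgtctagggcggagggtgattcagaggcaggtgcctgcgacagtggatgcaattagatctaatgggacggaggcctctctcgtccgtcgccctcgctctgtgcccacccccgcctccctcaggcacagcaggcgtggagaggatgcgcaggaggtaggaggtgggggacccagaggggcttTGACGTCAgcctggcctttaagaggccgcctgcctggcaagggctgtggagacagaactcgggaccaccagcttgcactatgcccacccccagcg
Slc18a2: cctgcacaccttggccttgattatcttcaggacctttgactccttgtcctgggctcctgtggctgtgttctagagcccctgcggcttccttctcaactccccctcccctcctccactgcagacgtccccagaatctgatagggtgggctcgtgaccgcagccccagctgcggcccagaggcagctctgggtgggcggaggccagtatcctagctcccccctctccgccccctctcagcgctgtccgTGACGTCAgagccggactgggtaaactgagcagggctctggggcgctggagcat
In Th the motif began 45 bases before the start, and in Slc18a2 it began 4 bases before the start and ran across it. TGACGTCA reads the same on both strands, and it stood in 588 of 32851 promoters of this length (1.79%). Of Th and the 22 genes of the catecholamine list, 14 had a promoter in the table, and Th and Slc18a2 were those that held the motif.

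Among the 75 Th-positive cells, Th had a mean of 50.7 RPKM, a lowest value of 1.11, quartiles of 5.12 and 50.7, a median of 16.5 and a highest value of 406 RPKM. These values chose the cells and are given as description. In recovered reads, Th had between 2 and 1760 reads per positive cell, with a median of 35. The RNA was spread unevenly: 29 cells from 1 to 10 RPKM held 3.24% of it, 35 cells from 10 to 100 RPKM held 31.9%, and 11 cells at 100 RPKM or more held 64.9%. Just outside the threshold the highest trace cells stood at 0.66 and 0.63 RPKM, and just inside it the lowest positive cells stood at 1.11 and 1.55 RPKM. The trace cells had 1 to 3 Th reads each. At the median depth of Th-negative cells 1 RPKM of Th was 2.68 reads, and in 12 of the 260 Th-negative cells it was less than 1 read.

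**Figure D1:**
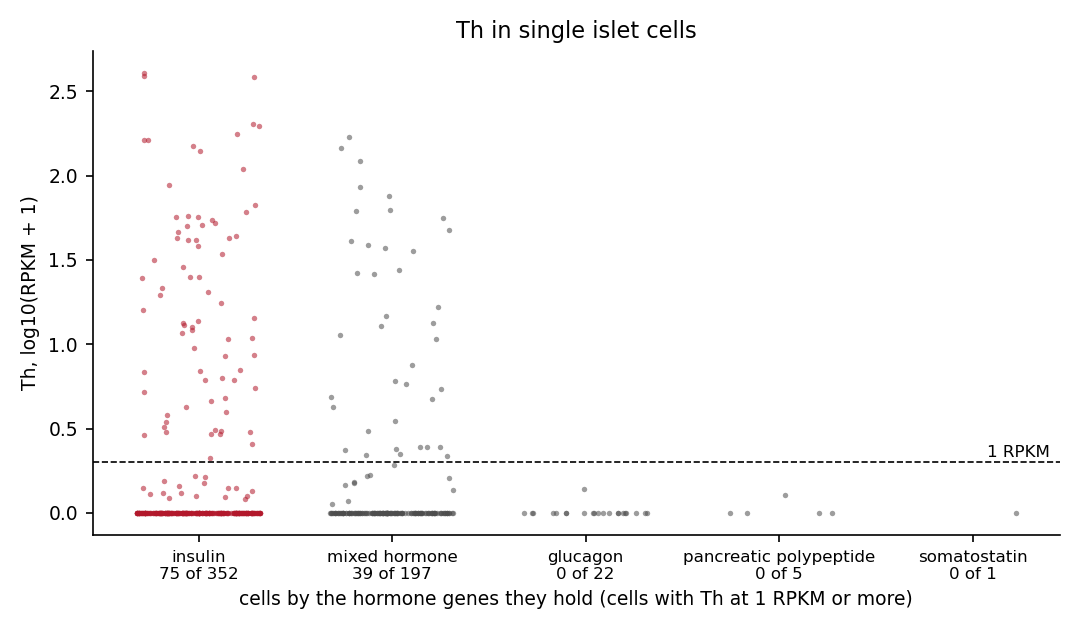
Th in each cell with at least 1000 genes and Tyrobp under 100 RPKM, as log10(RPKM + 1) on the vertical axis, by the hormone genes the cell held; each point is 1 cell and the dashed line is 1 RPKM. Th reached 1 RPKM in 75 of 352 insulin cells and 39 of 197 mixed-hormone cells, and in 0 of 22 glucagon cells.

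Th marked a minority of beta cells, and its share depended on the column set of the table. In all, 21.3% of beta cells were Th-positive (95% exact binomial interval 17.1% to 26.0%, which covers counting error only). The table holds 359 columns at full numerical precision and 263 rounded to 4 decimals, a split that the labels do not mention. In the full-precision columns 55 of 201 beta cells were Th-positive (27.4%, interval 21.3% to 34.1%), and in the rounded columns 20 of 151 (13.2%, interval 8.28% to 19.7%). After thinning each cell to 250000 reads the shares were 28.1% at full precision and 12.0% in rounded columns, with at least 1 Th read counted as positive. The full-precision beta cells had fewer reads (median 830483, against 1674580 in the rounded columns) and more genes (median 5597, against 4049). Full-precision columns thus made up 73.3% of the Th-positive cells, against 53.1% of the Th-negative cells, and each comparison below was made within both sets as well as over all cells.

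Th was also measured in the other classes of islet cell. Mixed-hormone cells, in which no hormone reached 99% of the hormone RNA, had Th in 39 of 197 cells (19.8%, interval 14.5% to 26.1%), and in 23.8% and 13.3% of cells at full precision and in rounded columns. Glucagon cells had Th at 1 RPKM in 0 of 22 cells, so a share of up to 13.6% remains possible, and the median depth was 1158970 reads in beta cells and 1390490 in glucagon cells. Of 16 cells with Tyrobp at 100 RPKM or more, 1 had Th, at 1.12 RPKM, with a median depth of 931130 reads. In 29 libraries with under 1000 genes, none reached 1 RPKM of Th, which allows up to 10.3%.

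The cells of both sides carried the beta cell genes that the rule did not use. Iapp, the amylin gene, had means of 63495 RPKM in Th-positive and 61306 RPKM in Th-negative cells, and Ucn3, the urocortin 3 gene of mature beta cells, 492 and 457 RPKM. The number of genes at 1 RPKM was 5547 in the median Th-positive cell, against 5015.5 in the median Th-negative cell. Within the full-precision columns these medians were 5838 in Th-positive and 5580.5 in Th-negative cells, and within the rounded columns 4399.5 and 4026. Thinned to 250000 reads, the medians were 5551 genes in Th-positive and 4995 genes in Th-negative cells, so the gap remained at equal depth. Its part in the gene differences was not tested, and a comparison with 75 Th-negative cells matched by gene number is given for some genes. Median depth was 1068690 reads in Th-positive and 1169330 in Th-negative cells, mitochondrial RNA 10.7% and 11.4% of RPKM, and insulin RNA 44.1% and 46.6%.

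By mean RPKM, the catecholamine genes beyond Th were mostly as abundant in Th-negative as in Th-positive cells, apart from Pts, Dnajc12 and Slc18a2. Each gene was compared by log2((mean + 1)/(mean + 1)) of RPKM, Th-positive over Th-negative, which understates the change of low genes. A gene was counted as past the mark when it differed at least 1.5-fold over all cells with the same sign in both column sets. Over 12195 genes with a mean of 1 RPKM on either side, 8.32% were past the mark upward and 8.09% downward. Of 16 catecholamine genes compared, 3 were past it upward and 0 downward, and the list's median was 0.12, against 0.09 over all genes compared (full-precision columns 0.20 against 0.04, rounded columns -0.14 against -0.15).

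Ddc RNA was present on both sides at like levels. Ddc had a mean of 134 RPKM (median 102, highest 1037) in Th-positive cells and 147 RPKM (median 121, highest 1065) in Th-negative cells, a log2 ratio of -0.14. It reached 1 RPKM in 74 of 75 Th-positive cells and in 244 of 260 Th-negative cells (98.7% and 93.8%). Gch1, GTP cyclohydrolase 1 and the first enzyme of the cofactor's synthesis, was close in mean as well. Its mean was 65.0 RPKM (median 38.0) in Th-positive and 53.6 RPKM (median 23.6) in Th-negative cells, with log2 ratios of opposite sign at full precision and in rounded columns (0.39 and -0.23). By means of log2(RPKM + 1), Gch1 was higher in Th-positive cells in both sets (0.85 and 0.26). Over all cells this difference was 0.80, against a median of 0.15 over all genes compared. Ddc overlaps Gm51937 and 1700042O10Rik, and Gch1 overlaps Gm18811, so some of their reads may belong to those genes.

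The cofactor enzyme Pts, 6-pyruvoyltetrahydropterin synthase, encoded at chr9:50521617-50528716, was higher and found in more of the Th-positive cells. Pts had a mean of 120 RPKM (lowest 0, median 58.7, highest 1195) in Th-positive cells, against 76.5 RPKM (lowest 0, median 34.5, highest 1265) in Th-negative cells. The log2 ratio was 0.65 over all cells, 0.30 at full precision and 1.27 in rounded columns. The ranges of the sides overlapped almost wholly. Pts reached 1 RPKM in 70 of 75 Th-positive cells (93.3%, interval 85.1% to 97.8%) and in 192 of 260 Th-negative cells (73.8%, interval 68.1% to 79.1%). In the full-precision columns these shares were 98.2% and 84.8%, and in the rounded columns 80.0% and 61.5%. The intervals of the sides overlapped in each set, narrowly at full precision (90.28% to 99.95% and 77.68% to 90.33%). In the rounded columns they were 56.3% to 94.3% and 52.2% to 70.1%. At 250000 reads the shares over all cells were 89.3% in Th-positive and 72.0% in Th-negative cells. All 35 cells with Th from 10 to 100 RPKM held Pts, as did 26 of 29 with less Th and 9 of 11 with more. Without the cell highest for Pts on each side, its ratio was 0.55, short of the mark.

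Slc18a2 and Dnajc12 stood the same way. Slc18a2 was at 0 in most cells of both sides, with a mean of 8.44 RPKM (median 0, highest 160) in Th-positive and 3.37 RPKM (median 0, highest 119) in Th-negative cells, a log2 ratio of 1.11 (0.92 and 0.67 at full precision and in rounded columns). It reached 1 RPKM in 17 of 75 Th-positive cells (22.7%, interval 13.8% to 33.8%) and in 25 of 260 Th-negative cells (9.62%, interval 6.32% to 13.9%). Within the sets the intervals of the 2 sides overlapped, at 15 of 55 and 22 of 138 cells in the full-precision columns and 2 of 20 and 3 of 122 cells in the rounded ones. Dnajc12, a co-chaperone known to bind the aromatic amino acid hydroxylases, had a mean of 84.9 RPKM (median 38.1) in Th-positive and 56.3 RPKM (median 15.9) in Th-negative cells. Its log2 ratio was 0.59 (0.28 and 1.03 at full precision and in rounded columns), at the edge of the mark, and it fell short against the matched Th-negative cells (0.57). Dnajc12 reached 1 RPKM in 61 Th-positive cells (81.3%) and 167 Th-negative cells (64.2%).

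Ddc, Gch1 and Slc18a2 were detected together in a minority of cells. Pts, Spr and the other vesicular transporter Slc18a1 were not part of this count. Of the 75 Th-positive cells 16 also had Ddc, Gch1 and Slc18a2 at 1 RPKM (21.3%, interval 12.7% to 32.3%), and of these 15 were in full-precision columns. The same 3 genes were together in 23 of 260 Th-negative cells (8.85%, interval 5.69% to 13.0%). Dbh and Pnmt were listed at 0 in every one of these cells, so shares of up to 4% in Th-positive and 1.15% in Th-negative cells remain possible. The plasma membrane dopamine transporter Slc6a3 was also listed at 0 on both sides. Slc18a1, the second vesicular monoamine transporter, was detected in 22 Th-positive and 69 Th-negative cells, with means of 4.31 and 5.05 RPKM.

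**Figure D2:**
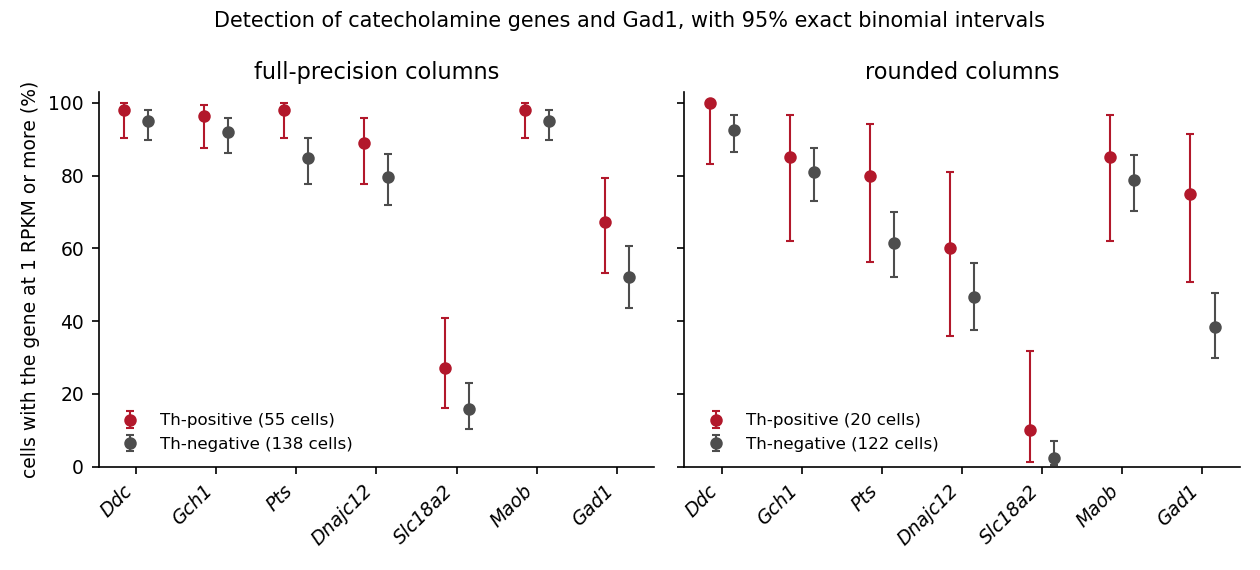
Share of cells with each gene at 1 RPKM or more, on the vertical axis in percent, in Th-positive (red) and Th-negative (grey) beta cells of each column set. Bars are 95% exact binomial intervals. Every gene shown stands higher in Th-positive cells of both sets, and Ddc, Gch1 and Maob are high on both sides.

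The monoamine oxidases did not part the sides. Maob, the monoamine oxidase of most beta cells here, had means of 106 RPKM in Th-positive and 108 RPKM in Th-negative cells. Maoa was low, with means of 2.68 and 2.44 RPKM, and was seen in 13 Th-positive and 28 Th-negative cells. Qdpr, which recycles the cofactor, had means of 104 and 108 RPKM, and Pcbd1, which acts before it in recycling, 199 and 179 RPKM. Spr, the last enzyme of cofactor synthesis, was at 1.85 RPKM in Th-positive and 2.20 RPKM in Th-negative cells. Slc7a5 and Slc3a2 form an amino acid carrier that takes up tyrosine and L-DOPA. Slc7a5 had means of 15.7 RPKM in Th-positive and 10.6 RPKM in Th-negative cells (log2 ratio 0.53, short of the mark), and Slc3a2 40.0 and 40.3 RPKM.

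Gad1, the gene of the GABA-forming enzyme glutamate decarboxylase 67, was found in more Th-positive cells than Th-negative ones in both column sets. Its mean was 36.9 RPKM (lowest 0, median 9.78, highest 265) in Th-positive cells, against 17.5 RPKM (lowest 0, median 0.50, highest 370) in Th-negative cells. The log2 ratio was 1.04, with 0.66 at full precision and 1.64 in rounded columns. Gad1 reached 1 RPKM in 52 of 75 Th-positive cells (69.3%, interval 57.6% to 79.5%) and in 119 of 260 Th-negative cells (45.8%, interval 39.6% to 52.0%). At full precision it was in 37 of 55 Th-positive and 72 of 138 Th-negative cells, and the intervals overlapped (53.3% to 79.3% and 43.5% to 60.7%). In the rounded columns it was in 15 of 20 Th-positive and 47 of 122 Th-negative cells (intervals 50.9% to 91.3% and 29.9% to 47.8%). These intervals cover counting error only and are no test of the sides, because cells are not replicates. At 250000 reads the shares over all cells were 69.3% in Th-positive and 50.6% in Th-negative cells. The share did not climb with Th: it was 75.9% in cells with 1 to 10 RPKM of Th, 62.9% in those with 10 to 100 and 72.7% in those with 100 or more. Against the matched Th-negative cells the ratio was 0.58, just short of the mark. Gad1 overlaps Gad1os, whose reads may be part of its value. Tph2, of serotonin synthesis, had a mean of 10.1 RPKM in Th-positive and 1.36 RPKM in Th-negative cells, but 1 cell held 99.4% of the Th-positive sum.

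Among all genes, 12 named as most clearly higher had ratios past the mark in both column sets, led by Gatm. These were ranked by the smaller of the sets' log2 ratios among genes with a mean of 20 RPKM and 1 RPKM in 30% of the cells on the higher side. Gatm, at chr2:122594473-122611277 on GRCm38, encodes the first enzyme of creatine synthesis. It had a mean of 57.6 RPKM (lowest 0, median 16.2, highest 674) in Th-positive cells, against 13.5 RPKM (lowest 0, median 0.26, highest 433) in Th-negative cells. Its log2 ratio was 2.01, with 1.46 at full precision and 2.99 in rounded columns. Gatm reached 1 RPKM in 43 of 75 Th-positive cells (57.3%) and in 108 of 260 Th-negative cells (41.5%), so the level differed more than the share of cells. The 17 trace cells, which entered neither side, had a Gatm mean of 79.2 RPKM and held it in 11 of 17 cells.

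Cd81, a tetraspanin of the cell surface encoded at chr7:143052750-143067930, was the gene with the highest mean of the 12. Cd81 had a mean of 75.4 RPKM (lowest 0, median 7.30, highest 704) in Th-positive cells, against 33.7 RPKM (lowest 0, median 1.20, highest 490) in Th-negative cells, a log2 ratio of 1.14 (0.84 and 1.39 in the sets). It reached 1 RPKM in 53 Th-positive cells (70.7%) and 134 Th-negative cells (51.5%), and in 65.5%, 74.3% and 72.7% of cells in the bands of rising Th. H2-T23, which encodes the non-classical class I molecule Qa-1, had means of 29.0 RPKM in Th-positive and 11.8 RPKM in Th-negative cells and was present in 36 and 82 cells. H2-T23 overlaps A930015D03Rik and Cd81 overlaps R74862, so their reads cannot be assigned with certainty.

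The other 9 named genes had diverse roles. Ephx1, microsomal epoxide hydrolase, had means of 23.2 RPKM in Th-positive and 8.94 RPKM in Th-negative cells (log2 ratio 1.28). Tfdp1, the partner of E2F factors, had 21.3 and 9.23 RPKM (1.12), and Ppp1cc, a catalytic subunit of protein phosphatase 1, had 30.9 and 12.9 RPKM (1.20). Slc22a17, the receptor known to take up lipocalin 2, had 22.0 RPKM in Th-positive and 7.47 RPKM in Th-negative cells (1.44), and 1 cell held 29.8% of the Th-positive sum. Pard6a, a cell polarity protein, had a ratio of 1.32, Capn7, a calpain protease, 0.97, Pigs, of the enzyme that attaches GPI anchors, 0.96, Caml, of the insertion of tail-anchored proteins, 0.87, and 1110032A03Rik 0.93. Against Th-negative cells matched by gene number, Pigs fell short of the mark, at 0.56. Pard6a overlaps Acd, and its promoter held TGACGTCA, the only one of the named genes' 28 promoters in the table to do so. All 12 were detected in a larger share of Th-positive cells. They were chosen to have a higher mean of log2(RPKM + 1) there in both sets, which favours this. Th-positive cells also had more genes detected, and 7 of the 12 genes named as lower were detected in a larger share of them too. For each of the 12 higher genes the ranges of single cells overlapped, with a lowest value of 0 on both sides. By this rank Slc22a17, with 0.77 as the smaller ratio, was the last named and Mdm2, also at 0.77, was next.

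**Figure D3:**
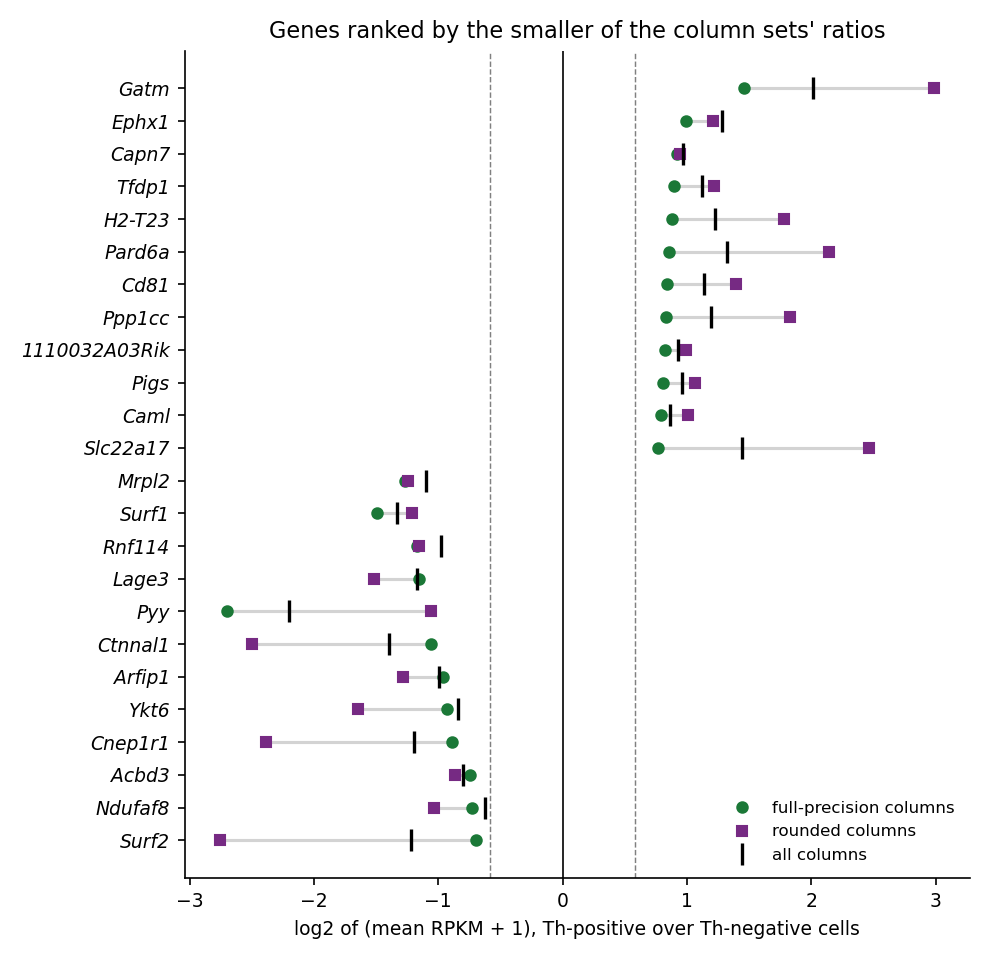
Log2 ratio of (mean RPKM + 1), Th-positive over Th-negative beta cells, for the 24 named genes; circles are full-precision columns, squares rounded columns, ticks all cells, and dashed lines the 1.5-fold mark. Gatm lies farthest above 0, at 1.46 and 2.99 in the sets, and Surf1 stands at -1.49 and -1.21.

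Of the 12 named as lower, Surf1 kept its ratio past the mark under all 17 alternative settings. Surf1, at chr2:26913378-26916610, encodes an assembly factor of cytochrome c oxidase. It had a mean of 16.7 RPKM (lowest 0, median 0, highest 182) in Th-positive cells, against 43.5 RPKM (lowest 0, median 1.46, highest 621) in Th-negative cells, a log2 ratio of -1.33 (-1.49 and -1.21 at full precision and in rounded columns). It reached 1 RPKM in 30 of 75 Th-positive cells (40.0%) and in 136 of 260 Th-negative cells (52.3%). Its share was 34.5%, 45.7% and 36.4% in the 3 bands of rising Th, each below the Th-negative share. The neighbouring gene Surf2, which overlaps Surf1 on chromosome 2, also stood in the named set, with means of 8.75 RPKM in Th-positive and 21.7 RPKM in Th-negative cells. Reads in their overlap cannot be assigned to either with certainty.

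The other named lower genes differed more in their highest cells than in the number of cells that held them. Mrpl2, of the mitochondrial ribosome, had means of 10.6 RPKM in Th-positive and 23.7 RPKM in Th-negative cells (log2 ratio -1.09), and was seen in 48.0% and 47.3% of cells. Lage3, of the complex that modifies tRNA with threonylcarbamoyl groups, had 12.8 and 30.0 RPKM (-1.17). Ykt6, a SNARE of vesicle fusion, had 11.3 and 21.0 RPKM (-0.84), and Arfip1, which binds small GTPases at the Golgi, 13.5 and 27.9 RPKM (-0.96 at full precision and -1.29 in rounded columns). Rnf114, a ubiquitin ligase, Ctnnal1, Cnep1r1, Acbd3, a Golgi protein, and Ndufaf8, a complex I assembly factor, had ratios of -0.98, -1.40, -1.19, -0.80 and -0.63. Only 5 of the 12 were detected in a smaller share of Th-positive cells. By means of log2(RPKM + 1), 11 of the 12 fell short of the mark, and Surf1 did not. Pyy, the peptide YY gene, had means of 39.8 RPKM in Th-positive and 187 RPKM in Th-negative cells, but 1 Th-negative cell held 64.8% of its side's sum and the medians were 8.41 and 10.3 RPKM. Mrpl2 overlaps Klc4, Rnf114 overlaps Spata2 and Arfip1 overlaps Gm8813 and Gm35410.

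**Figure D4:**
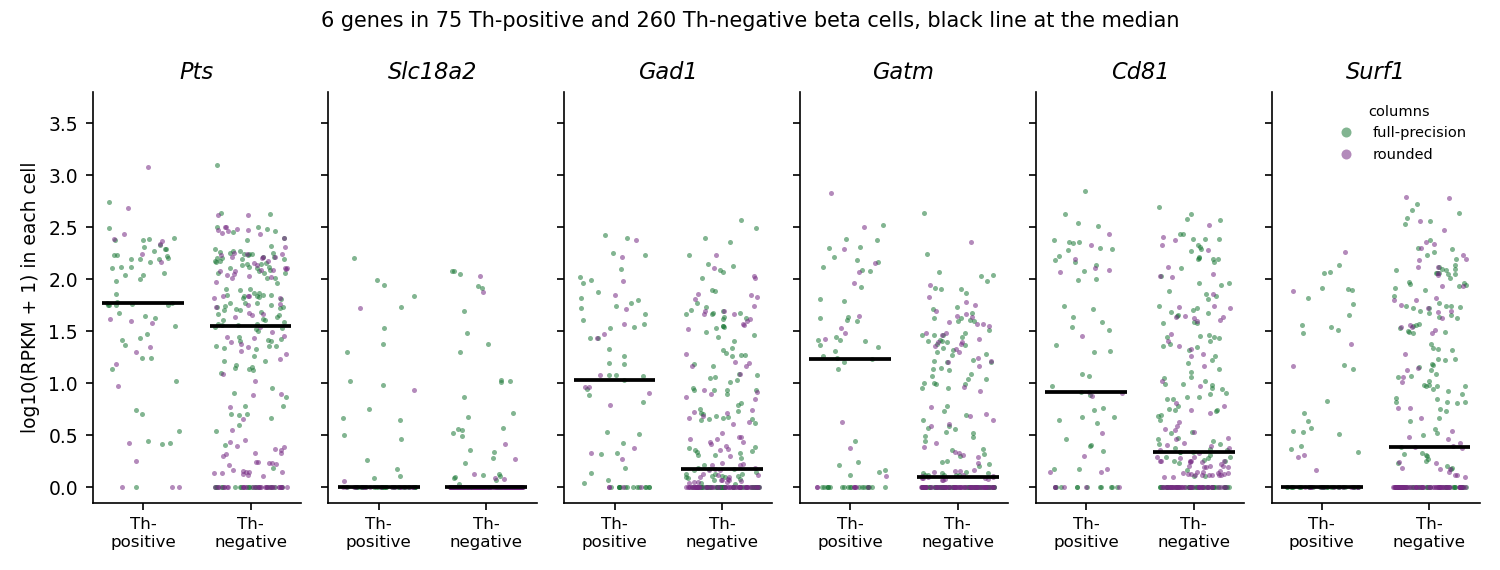
Level of 6 genes in each Th-positive (left) and Th-negative (right) beta cell, as log10(RPKM + 1) on the vertical axis; points are cells, green in full-precision and purple in rounded columns, and black lines are medians. The sides overlap for every gene, and the medians of Pts, Gad1, Gatm and Cd81 are higher in Th-positive cells while that of Surf1 is 0 there.

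Few genes of beta cell identity and function were past the mark, though most members of each list had ratios above 0. Over all genes compared, 58.7% were above 0. Of 21 endocrine transcription factors compared, 2 were past the mark upward (9.52%, against 8.32% of all genes) and 0 downward. The list's median was 0.21 (0.19 and 0.21 in the sets), against 0.09 over all genes, with 14 members above 0 and 7 below. Nkx6-1 had means of 16.9 RPKM in Th-positive and 10.1 RPKM in Th-negative cells (log2 ratio 0.68; 0.94 and 0.21 in the sets) and Pdx1 16.8 and 10.2 RPKM (0.67; 0.55 and 0.44). Both are activators of the insulin genes, and both fell short of the mark when the column sets had equal weight (0.58 and 0.50). Neurod1 had opposite signs in the sets, 0.55 at full precision and -1.31 in rounded columns. Mlxipl was short of the mark at 0.51 (0.55 and 0.69 in the sets). Its medians were 22.5 RPKM in Th-positive and 8.19 RPKM in Th-negative cells, and it was detected in 89.3% and 72.7% of cells. Of 26 genes of beta cell function, 1 was past the mark upward (3.85%, against 8.32% of all genes) and 0 downward. That list's median was 0.10, against 0.09 over all genes, with 21 members above 0 and 5 below. The gene past the mark was the glucose transporter Slc2a2, with means of 218 RPKM in Th-positive and 140 RPKM in Th-negative cells and medians of 140 and 84.6 RPKM. Its log2 ratio was 0.63, and 0.52 without its highest cell on each side. Of 18 granins and granule proteins 0 were past the mark, with 16 above 0 and 2 below, and Chga, chromogranin A, had means of 1410 and 1268 RPKM.

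Glycolysis genes had the highest median among the energy lists and mitochondrially encoded genes the lowest. Of 15 glycolysis genes 3 were past the mark upward (20.0%, against 8.32% of all genes) and 0 downward, and the median was 0.40, with 0.14 and 0.10 in the sets. Gpi1, glucose phosphate isomerase, had means of 76.9 RPKM in Th-positive and 44.7 RPKM in Th-negative cells (log2 ratio 0.77), Gapdh 12.7 and 7.17 RPKM (0.75), and the phosphofructokinase Pfkp 6.75 and 3.16 RPKM (0.90). Against Th-negative cells matched by gene number, Gpi1 stood at 0.28 and Gapdh at 0.56. Of 25 nuclear genes of the respiratory chain and ATP synthase 2 were past the mark upward, Ndufs1 (0.88) and Cox5a (0.59), and the median was 0.02. The 13 mitochondrially encoded genes had a median of -0.33 (-0.19 and -0.31 in the sets) with none past the mark, and the median was 0.00 among cells with at most 30% mitochondrial RNA. The highest mitochondrial share was 39.4% in Th-positive and 87.9% in Th-negative cells.

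Of 20 immediate early and heat shock genes 0 were past the mark upward and 3 downward (15.0%, against 8.09% of all genes), among them Nr4a1, an activity-induced nuclear receptor, with means of 6.03 RPKM in Th-positive and 11.0 RPKM in Th-negative cells. The list's medians had opposite signs in the sets, 0.15 and -0.59. Of 26 genes of the unfolded protein response, 0 were past it upward and 2 downward (7.69%), with Edem1, of ER degradation, at -0.64. Of 16 factors that act on Th transcription, 2 were past it upward (Hif1a at 0.98 and Atf1 at 0.71) and 2 downward (Nr4a1 at -0.78 and Fosb at -0.62), 12.5% each way. One cell held 38.4% of Hif1a in Th-positive cells, and its ratio without the highest cell on each side was 0.43. Fosb had the opposite sign, 0.34, against the matched Th-negative cells. Of 18 proteins that bind or phosphorylate tyrosine hydroxylase or remove its phosphates, 0 were past the mark, and Ywhaq, a 14-3-3 protein, had means of 221 and 191 RPKM.

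Receptors for nutrients and hormones had 3 of 21 genes past the mark upward and 0 downward (14.3%, against 8.32% of all genes). Gpr119, a lipid-sensing receptor, had means of 33.8 RPKM in Th-positive and 6.25 RPKM in Th-negative cells, but 1 cell held 62.7% of the Th-positive sum. It was detected in 19 Th-positive and 35 Th-negative cells. Ffar3, a receptor for short-chain fatty acids, had 6.58 and 2.45 RPKM and was detected in 12 and 16 cells, and its top 2 cells held 64.5% of the Th-positive sum. Adra2a, the adrenergic receptor through which catecholamines curb insulin secretion, had means of 10.1 RPKM in Th-positive and 10.3 RPKM in Th-negative cells. It reached 1 RPKM in 39 of 75 and 133 of 260 cells. The dopamine and adrenergic receptor list had 14 genes, and Adra2a was the one high enough to be compared, while 7 were listed at 0.

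The remaining lists, of secretion, metabolism and growth, had between 0 and 3 members past the mark in a direction. Over all genes compared, 8.32% were past it upward and 8.09% downward. Of 19 exocytosis genes 2 were past the mark upward (10.5%) and 0 downward. Among them Nsf, the ATPase that takes SNARE complexes apart, had means of 39.5 RPKM in Th-positive and 20.0 RPKM in Th-negative cells. The Nsf ratio was 0.95, and 0.47 without its highest cell on each side. Of 22 TCA cycle genes 1 was past it upward (4.55%), citrate synthase (Cs, 0.60), and of 22 cytosolic ribosomal protein genes 0, with a median of 0.12. Of 16 ion channel genes 1 was past it upward and 1 downward (6.25% each way). The higher one, the potassium channel Kcnh6, had means of 11.1 RPKM in Th-positive and 6.69 RPKM in Th-negative cells. Of 20 proliferation genes 3 were past it upward and 1 downward (15% and 5%). Pcna, the sliding clamp of DNA replication, had means of 76.7 RPKM in Th-positive and 49.7 RPKM in Th-negative cells. The list's medians were 0.38 at full precision and -0.51 in rounded columns. Of 17 genes of the integrated stress response and amino acid synthesis 2 were past the mark upward and 1 downward (11.8% and 5.88%). Of 14 interferon and antigen presentation genes 1 and 1 were past it (7.14% each way). The counts were 1 and 2 of 10 neuropeptide genes (10% and 20%), and 0 of 5 immaturity genes. B2m, the light chain of class I molecules, had medians of 78.9 RPKM in Th-positive and 14.0 RPKM in Th-negative cells and means of 146 and 102 RPKM (log2 ratio 0.51, short of the mark; 0.08 at full precision and 1.22 in rounded columns).

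Genes described elsewhere as uneven among beta cells did not move together. Of 19 compared, 3 were past the mark upward and 3 downward, 15.8% each way, against 8.32% and 8.09% of all genes. The median was 0.04, with -0.21 and -0.02 in the sets. Npy, the neuropeptide Y gene of immature beta cells, reached 1 RPKM in 1 of 75 Th-positive cells, at 46.4 RPKM, and in 14 of 260 Th-negative cells, whose highest value was 5015 RPKM. Cd9, a tetraspanin used with others to sort beta cell subtypes, had means of 2.20 RPKM in Th-positive and 7.79 RPKM in Th-negative cells. It was detected in 6 and 22 cells (8.00% and 8.46%), so the difference lay in a few high cells. Lcn2, lipocalin 2, was detected in 14 Th-positive and 40 Th-negative cells, none of them in rounded columns, and 2 Th-negative cells held 86.6% of that side's sum.

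**Figure D5:**
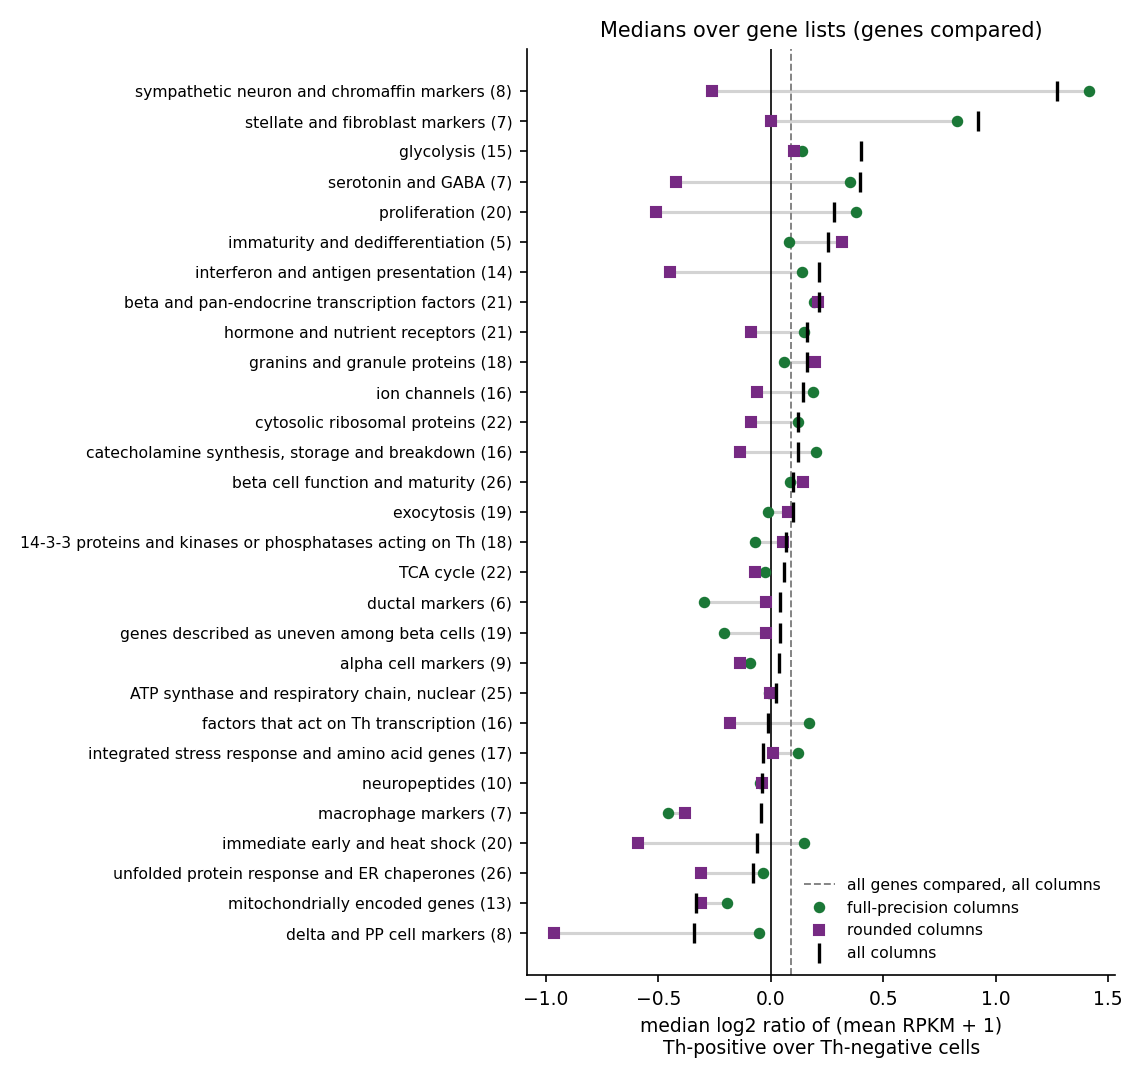
Median log2 ratio of (mean RPKM + 1), Th-positive over Th-negative beta cells, for the 29 gene lists with at least 5 genes compared (number in brackets); circles are full-precision columns, squares rounded columns, ticks all cells, and the dashed line is the median over all genes, 0.09. The lists' medians over all cells lie between -0.34 and 1.27, and for many the sets fall on both sides of 0.

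Markers of other Th-bearing and islet cell types were measured on both sides. The list of sympathetic neuron and chromaffin genes had 20 members, of which 5 were listed at 0 in all Th-positive and 8 in all Th-negative cells; Dbh, Pnmt, Gata3 and Prph were at 0 on both sides. Their summed level had a median of 14.2 RPKM (0 to 1482) in Th-positive and 12.1 RPKM (0 to 359) in Th-negative cells. The mean of that sum was 70.8 RPKM in Th-positive and 37.1 RPKM in Th-negative cells. The list's median log2 ratio was 1.27, the highest of the 29 lists with at least 5 genes compared, with 1.41 at full precision and -0.26 in rounded columns, and 6 of the 8 compared were above 0. Its part in the other differences was not tested. Of these 8, 0 were past the mark upward and 1 downward (12.5%), against 8.32% and 8.09% of all genes. The lower gene was Ret, a receptor tyrosine kinase, with means of 4.86 RPKM in Th-positive and 10.3 RPKM in Th-negative cells. Cells with at least 3 of these markers at 10 RPKM were 2 of 75 Th-positive and 4 of 260 Th-negative cells. The neuronal tubulin gene Tubb3 had means of 44.0 RPKM in Th-positive and 17.2 RPKM in Th-negative cells, with log2 ratios of 1.32 at full precision and -1.65 in rounded columns.

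Among other islet types, 48 of 75 Th-positive and 165 of 260 Th-negative cells had 3 or more alpha cell list genes at 10 RPKM (64.0% and 63.5%), and 34 and 106 cells had 3 or more of the delta and PP list (45.3% and 40.8%). Macrophage markers reached this in 1 Th-positive and 4 Th-negative cells, endothelial markers in 1 and 0, stellate and fibroblast markers in 1 and 3, ductal markers in 52 and 173, acinar markers in 0 and 5, and glial markers in 0 and 1. Of the genes compared in these lists, the counts past the mark upward and downward were 0 and 1 of 9 for alpha genes. They were 0 and 1 of 8 for delta and PP, 1 and 2 of 7 for macrophage genes. For endothelial genes they were 1 and 0 of 4, for stellate 2 and 0 of 7 and for ductal 0 and 1 of 6. For acinar genes they were 0 and 0 of 1 and for glial genes 0 and 1 of 1. Over all genes compared the shares were 8.32% upward and 8.09% downward, and lists of 1 to 9 genes are too short to set against them. Summed macrophage markers had a median of 2.25 RPKM (0 to 1271) in Th-positive and 5.30 RPKM (0 to 337) in Th-negative cells, and the medians of summed endothelial, stellate, acinar and glial markers were 0 on both sides. The ductal genes counted here include Krt8 and Epcam, which beta cells of both sides held. Likewise the alpha list includes Ttr, at 1 RPKM in 100% of Th-positive and 96.9% of Th-negative cells, and Peg3, in 94.7% and 93.8%. The delta and PP list includes Pyy and Meis2, which most cells of both sides held. Single Th-positive cells accounted for Rgs5 (9058 RPKM, with 3.33 in the next cell) and Emcn (619 RPKM, with 0.81 in the next), genes of pericytes and endothelium. The part of such mixed libraries in the ratios was not tested beyond leaving out each gene's highest cell. Chambers can catch more than 1 cell, no doublet caller was run, and the hormone and Tyrobp rules were the means by which mixed libraries were removed.

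Over all genes compared, 1015 were past the mark upward and 987 downward in Th-positive cells. With each gene's highest cell on each side left out, these counts were 363 and 1328. By means of log2(RPKM + 1) they were 703 and 7. In the full-precision columns the median log2 ratio over all genes was 0.04 and in the rounded columns -0.15.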

How the data were processed

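RNA was sequenced from 622 single islet cells. The authors deposited 1 table of RPKM values with 44448 genes by Entrez ID and 1 column per cell; all columns matched a sample (0 unmatched). CASAVA 1.8.2, FastQC and the build GRCm38 (mm10) are named in the submitters' processing notes, and capture on a C1 circuit, SMARTer cDNA and Nextera XT libraries in the labels' protocols. The aligner, the counter and the annotation were not given in the sources used here. Symbols and positions came from RefSeq on GRCm38.p6 for 39725 IDs.

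The table gives no depth, so whole reads per gene were recovered from the steps between RPKM values of different cells; within a tolerance of 0.05, 99.998% of recovered values below 100 reads were whole at full precision and 99.999% in rounded columns. These reads served for depth (151295 to 4788790 per cell at full precision, 2461 to 6111950 in rounded columns) and for thinning to 250000 reads, which left out 3 beta cells. RPKM entered every ratio as deposited, without a count model.

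Sides were compared by log2 of (mean RPKM + 1) over (mean RPKM + 1) for genes with a mean of at least 1 RPKM on either side. A gene was past the mark at 1.5-fold over all cells with the same sign in both column sets. The 24 named genes were the 12 highest and 12 lowest by the smaller of the sets' ratios, with a mean of at least 20 RPKM, 1 RPKM in at least 30% of cells on the higher side and the same sign by means of logs. From each list of related genes, up to 4 members with a mean of at least 5 RPKM and the largest ratios were eligible to be named, and every catecholamine gene, except a few results that are not reported here; a few others, such as Iapp, Ucn3, Chga, Gata3 and Prph, were chosen after their values were seen. The members, the 33 lists and the rule were chosen with earlier results of these data known. Shares carry 95% Clopper-Pearson intervals, and a count of 0 the limit of 3 counts of the total. The comparison was checked on Th-negative cells in which known fold changes, larger than the mark, were placed in some genes. The recovery of reads was tested on simulated data. Python 3.11.15, numpy 2.4.6, scipy 1.17.1, pandas 2.3.3 and matplotlib 3.10.9 were used.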

Additional observations from a re-analysis of the deposited data

How the results depend on the processing

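Up to 17 alternatives were run on each result (16 on the Th-positive share, for which matching by gene number gives no value, and 12 to 16 on some short marker lists), of which the limit of 30% mitochondrial RNA was chosen after seeing the data. No paired analysis was possible because all cells form 1 group and the labels number no replicates. The Th-positive share was 13.1% with positives from 10 RPKM, 27.4% in the full-precision columns alone and 13.2% in the rounded columns alone. The counts of genes past the mark, upward and downward, were 173 and 48 with 10 RPKM added to the means and 671 and 403 with a mean of at least 5 RPKM, where fewer genes could count (7138). They were 1807 and 1538 in the full-precision and 2553 and 3825 in the rounded columns alone, where no second set had to have the same sign. The downward count was 7 by means of log2(RPKM + 1) and 1581 with equal weight of both sets, and the upward count 363 without each gene's highest cell; the cause was not tested. Against Th-negative cells matched by gene number, 1363 and 1139 genes were past the mark, of which 649 and 508 were also past it in the comparison as reported. Of the 24 named genes, 385 of 408 values stayed past the mark, 23 fell short and 0 changed sign, but these genes were chosen by their ratios in both column sets and by the sign of their means of logs, which fixed part of that count; Gatm, Capn7, Tfdp1, H2-T23, Pard6a, Cd81, Ppp1cc, 1110032A03Rik, Slc22a17 and Surf1 stayed past it under all 17. Of 38 list members past the mark, 506 of 646 values stayed past it, 135 fell short and 5 changed sign: Phgdh at -0.033 without its highest cell and -0.31 both with Th from 10 RPKM and with at least 3000 genes, Emcn at -0.00023 with the stricter insulin rule, and Fosb at 0.34 against matched cells. With 20 Th-positive cells in the rounded columns and cells of 1 sample throughout, the intervals show counting error and not the spread between animals.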
